A study of Mus musculus with 10 samples.

Results

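Mitochondrial protein import genes were followed in the ribosome-bound RNA of Drd1-expressing cells of the mouse striatum. The group consists of every counted gene whose symbol begins with Timm, Tomm or Chchd followed by a digit, which gave 33 of 32531 gene rows, 14 of them Timm, 11 Tomm and 8 Chchd. The symbols alone chose the members, but the family was taken up with earlier results of these same counts known, so what follows describes the family and does not test it. All 33 symbols were found in the RefSeq gene table of GRCm38.p6, the assembly also known as mm10.

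Most mitochondrial proteins are made on cytosolic ribosomes and carried into the organelle afterwards. Precursors bind receptors of the TOM complex of the outer membrane and pass through its pore. Those with a cleavable presequence go on through the TIM23 complex of the inner membrane, while the multispanning metabolite carriers are escorted by small TIM chaperones to the TIM22 complex. Chchd4 is the mouse MIA40 oxidoreductase, which traps small proteins with paired cysteine motifs in the intermembrane space. Among them are the small TIMs and several other Chchd proteins. Neurons depend on this route for the respiratory chain that supplies their synapses and long axons.

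The study used translating ribosome affinity purification with sequencing (TRAP-seq), in which antibodies against EGFP pull down polysomes whose L10a protein carries an EGFP tag. All mice were adults of the Drd1-TRAP line CP73, in which the Drd1 gene's regulatory sequence drives the tag, derived from FVB/N-Swiss Webster and C57BL/6 stock and bred onto C57BL/6 for at least 9 generations. The whole striatum was taken in a short-access study of intravenous self-administration. One group of mice self-administered cocaine, another self-administered saline and the last was a yoked control. Each gave 3 pull-down libraries, and 1 further library was the input. It is not stated what the yoked mice received or whether each library is from a different animal, so p-values reflect the spread of these samples alone, part of which may be technical. Libraries are called by group and number, such as yoked 3.

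The pull-downs held 12528806 to 45242175 gene counts and the input 40519976. Every saline library, with 12528806 to 28408236 counts, was shallower than every cocaine library (32169018 to 33432793), and these were shallower than every yoked library (38611396 to 45242175). The labels also place saline on sequencing lane 3, cocaine on lane 1, yoked on lane 2 and the input on lane 5, so lane, depth and group cannot be told apart. Between 10.5% and 20.5% of a pull-down's counts fell on Rn45s, the ribosomal RNA gene. Reads that matched no gene were 27.63% of the input's reads and 12.25% to 16.11% of a pull-down's. Reads set aside as ambiguous between genes were 6.634% in the input and 2.541% to 3.032% in the pull-downs. The part of these differences in the ratios to the input was not tested. Markers of the labelled cells were present. All 7 genes marking D1 medium spiny neurons were above the input in each of the 9 pull-downs, with a median ratio of 2.27, against 0.207 for 5 markers of D2 medium spiny neurons, 0.172 for 8 of astrocytes, 0.165 for 7 of oligodendrocytes and 0.218 for 6 of interneurons. Markers of cortical glutamatergic neurons were at 2.20 times the input, with none of the 5 measured above it in each pull-down. Growth hormone (Gh) RNA stood at 2360 CPM in the input, at 340 CPM in saline 1 and at no more than 3.28 CPM in the other 8 pull-downs (CPM, counts per 1000000 gene counts). Where the Gh RNA came from was not tested, and this input is the only reference for the ratios given below. Yoked 3 stood apart from the other pull-downs. It was the highest of the 9 libraries for 26.7% and the lowest for 23.7% of the 14680 genes tested, so results that rest on it are given with and without it.

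Of the 33 members, 29 reached a mean of 1 CPM over all 10 libraries. The 4 that did not were Timm23, Timm8a2, Tomm20l and Tomm6os. Timm23, the pore-forming subunit of the presequence translocase, lay between 0.387 and 1.08 CPM in the pull-downs and at 0.765 CPM in the input. The gene table also lists a Timm23 pseudogene, Gm4816, for which there is no counted row, and reads that align to more than 1 place are kept out of such counts. Whether that lowers the Timm23 count was not tested. Timm8a2 was at 0 in 8 pull-downs and in the input, with all its reads in yoked 3 (0.464 CPM). The RNA called Tomm6os is a noncoding transcript that matches the symbol rule and overlaps Tomm6 by 777 bases. Where 2 genes overlap, reads can be set aside as ambiguous, and which reads these were cannot be told without a stated strand setting.

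The first comparison set each pull-down against the input, asking how much of the RNA on the ribosomes of tagged cells came from import genes relative to whole striatal RNA. As a family the import genes were above the input. Their summed level was 1647 CPM in the input and 2999 to 3737 CPM in the pull-downs, 1.82 to 2.27 times as much. The median member was at 2.25 times the input (a mean log2 ratio of 1.17 over the 9 pull-downs), whereas the median of all 12773 genes with a mean of at least 1 CPM was 1.02 times. Of the 29 members, 27 were above the input in each of the 9 pull-downs, against 31.9% of all genes. At least 2-fold enrichment in each pull-down was seen for 10 of the 29, against 3.75% of all genes, and none was at least 2-fold below the input in each, against 7.46%. Without yoked 3 the 2-fold count was 11 of 29, against 4.37% of all genes. Ratios were formed on log2(CPM + 0.5), which understates the change of low genes, and with a single input they carry no test. In bulk RNA, fewer cells of a type and less RNA per cell cannot be told apart.

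**Figure D1:**
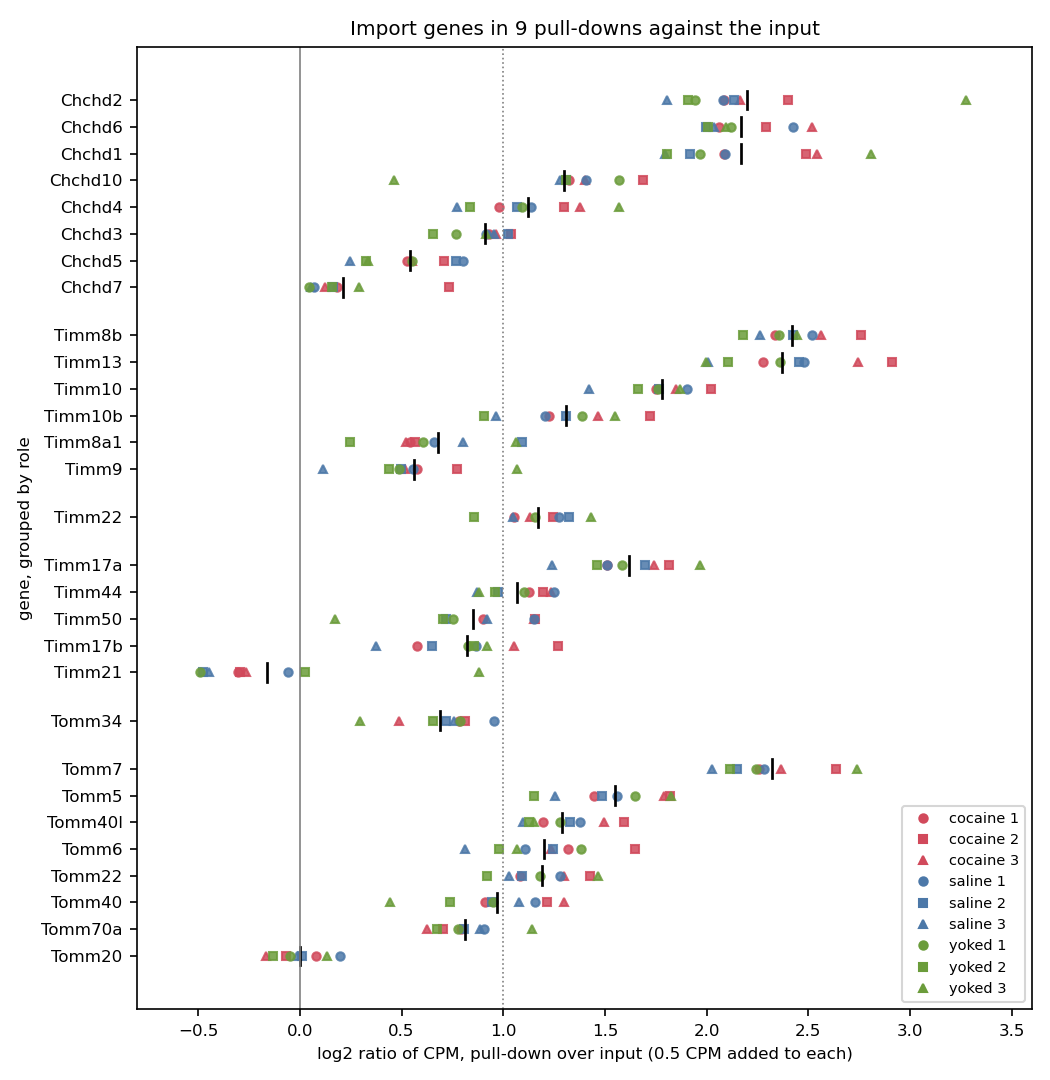
The log2 ratio of CPM in each pull-down to CPM in the input is plotted for the 29 import genes with a mean of at least 1 CPM, grouped by role from the TOM complex at the bottom to the Chchd proteins at the top. Points are single libraries, colour marks the group, black bars are means over the 9 pull-downs, the solid line marks the input and the dotted line a 2-fold ratio. All genes but Timm21 and Tomm20 lie wholly to the right of the input, and yoked 3 is the library farthest out for Chchd2, Chchd10, Timm21 and Timm50.

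Upstream sequences hold motifs that some of the members share. A RefSeq promoter entry was found for 28 of the 33 members, and the 250 bases before the annotated start were searched on both strands for the core of the NRF-1 motif (CGCNTGCGC) and for the core of the ETS motif (CCGGAAG). NRF-1 and the ETS factor NRF-2, also called GABP, are known regulators of nuclear genes for mitochondrial proteins. The ETS core was present in 9 of the 28 (32.1%) against 7.05% of 27025 promoters of the same length. The NRF-1 core was present in 3 (10.7%) against 5.33%, and either of them in 12 (42.9%) against 11.6%. Most of the members searched thus held neither core. Among the 12 were Timm23 and Timm8a2, both below a mean of 1 CPM. Median GC content was 57% in the members and 52.0% in all promoters, and its part in these shares was not tested. The motifs were chosen with the sequences in view, and a match is a description, not a bound site. The sequences below are 5′ to 3′ on the gene's strand from the RefSeq table of GRCm38.p6, with motif matches in capitals. They are shown for the member with the highest ratio to the input (Timm8b, chr9:50603651-50603900, plus strand), the next highest (Timm13, chr10:80900970-80901219, minus strand), the 3 TOM receptors Tomm20 (chr8:126945922-126946171, minus strand), Tomm22 (chr15:79670618-79670867, plus strand) and Tomm70a (chr16:57121464-57121713, plus strand), and for Chchd10 (chr10:75932880-75933129, plus strand), which holds neither core.
Timm8b: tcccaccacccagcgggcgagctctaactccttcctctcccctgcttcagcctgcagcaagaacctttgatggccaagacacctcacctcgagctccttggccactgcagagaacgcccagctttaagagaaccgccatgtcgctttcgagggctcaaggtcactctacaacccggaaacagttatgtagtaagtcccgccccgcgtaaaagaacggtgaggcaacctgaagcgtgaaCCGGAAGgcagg
Timm13: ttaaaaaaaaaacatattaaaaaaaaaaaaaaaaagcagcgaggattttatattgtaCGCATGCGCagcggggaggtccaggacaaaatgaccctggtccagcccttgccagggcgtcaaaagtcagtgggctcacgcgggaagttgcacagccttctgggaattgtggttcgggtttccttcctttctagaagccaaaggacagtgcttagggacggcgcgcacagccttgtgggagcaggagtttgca
Tomm20: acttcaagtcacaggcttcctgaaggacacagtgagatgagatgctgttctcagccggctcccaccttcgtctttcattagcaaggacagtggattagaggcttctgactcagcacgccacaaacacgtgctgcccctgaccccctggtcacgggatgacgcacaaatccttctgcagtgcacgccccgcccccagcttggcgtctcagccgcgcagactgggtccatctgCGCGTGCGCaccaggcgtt
Tomm22: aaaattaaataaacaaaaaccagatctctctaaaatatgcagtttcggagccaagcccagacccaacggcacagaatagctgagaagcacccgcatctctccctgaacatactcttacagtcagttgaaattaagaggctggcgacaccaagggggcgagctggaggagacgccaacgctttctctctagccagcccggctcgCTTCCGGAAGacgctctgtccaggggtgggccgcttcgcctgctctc
Tomm70a: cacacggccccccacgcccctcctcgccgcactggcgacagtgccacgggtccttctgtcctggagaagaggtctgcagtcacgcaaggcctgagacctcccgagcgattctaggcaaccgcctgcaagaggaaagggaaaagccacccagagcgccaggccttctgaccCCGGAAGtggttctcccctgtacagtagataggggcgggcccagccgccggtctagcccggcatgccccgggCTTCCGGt
Chchd10: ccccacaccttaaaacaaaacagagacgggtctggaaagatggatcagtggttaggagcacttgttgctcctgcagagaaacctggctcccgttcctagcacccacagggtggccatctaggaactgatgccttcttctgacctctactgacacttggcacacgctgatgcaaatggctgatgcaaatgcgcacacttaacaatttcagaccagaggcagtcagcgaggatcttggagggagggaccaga
In Timm8b the ETS core begins 12 bases before the start of transcription. In Tomm22 the palindrome in capitals is a pair of overlapping ETS cores on opposite strands that begin 47 and 44 bases before the start. Tomm70a has 1 core 80 bases and another 8 bases before its start. The NRF-1 core begins 19 bases before the start in Tomm20 and 193 bases before it in Timm13. Tomm20 and Timm13, which both hold the NRF-1 core, were near the lower and the upper end of the family in their ratio to the input.

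Among the TOM subunits, 7 of the 8 with a mean of at least 1 CPM were above the input in each pull-down, with a median of 2.29 times. The receptors differed from each other. Tomm20 (chromosome 8, 126930664 to 126945921), the receptor for presequences, was at 447 CPM in the input and had a low of 398, a median of 442 and a high of 512 CPM in the pull-downs. Its mean ratio was 1.0, with 4 of 9 pull-downs above the input, so that it tracked whole-tissue RNA while most of its partners did not. Tomm70a (chromosome 16, 57121714 to 57154530), the receptor for carrier precursors bound to chaperones, was at 390 CPM in the input and at a low of 602, a median of 675 and a high of 862 CPM in the pull-downs, 1.76 times on average. Every pull-down of Tomm70a was above the input. The ratio of Tomm70a to Tomm20 counts within a library, which cancels its depth, was 0.873 in the input and 1.43 to 1.76 in the 9 pull-downs. Tomm22, the central receptor, was at 38.8 CPM in the input and at a low of 73.8, a median of 88.7 and a high of 108 CPM in the pull-downs (2.29 times).

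Tomm40, the beta-barrel pore of the complex, was at 19.0 CPM in the input and at a low of 26.0, a median of 37.2 and a high of 47.4 CPM in the pull-downs. The low of Tomm40 was yoked 3, and the mean ratio of 1.96 became 2.05 without it. Its relative Tomm40l, whose locus overlaps Nr1i3 and Apoa2, was at 2.45 times the input. The small Tom proteins, which hold the pore together, were further above the input than Tomm40, though Tomm6 was below Tomm40l. Tomm7 (chromosome 5, 23838944 to 23844145) was at 10.8 CPM in the input and at a low of 45.5, a median of 53.6 and a high of 74.9 CPM in the pull-downs. Tomm7 had the third-highest ratio of the family, 4.99 times, with a mean log2 ratio of 2.32 ± 0.24 (SD, n = 9 pull-downs). Tomm5 was at 2.93 and Tomm6 at 2.30 times the input. Tomm34, a cytosolic cochaperone outside the complex, was at 1.62 times.

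The subunits of the TIM23 complex were less enriched as a set, with a median of 1.80 times over the 5 with a mean of at least 1 CPM. Timm17a and Timm17b are alternative forms of a channel subunit. Timm17a was at 39.7 CPM in the input and at a low of 94.6, a median of 120 and a high of 157 CPM in the pull-downs, 3.07 times. Timm17b, on the X chromosome, was at 7.01 CPM in the input and at a low of 9.23, a median of 13.1 and a high of 17.6 CPM in the pull-downs, 1.77 times. The Timm17a to Timm17b count ratio was 5.66 in the input and 8.01 to 11.5 in the pull-downs, so the balance between the forms differed from whole tissue in each pull-down. Timm50, the receptor that takes presequences from TOM, was at 1.80 times the input, or 1.91 without yoked 3. Timm44, which anchors the import motor, was at 2.09 times, with 5 of 9 pull-downs past 2-fold.

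Timm21, which links TIM23 to TOM and to the respiratory chain, had the lowest ratio of the family. It was at 4.96 CPM in the input and at a low of 3.39, a median of 3.95 and a high of 9.55 CPM in the pull-downs, 0.896 times on average and 0.819 without yoked 3, the library with the high value. The Timm21 gene lies wholly inside the span of Fbxo15, which is counted too. Timm22, the core of the carrier translocase, was at 13.7 CPM in the input and at a low of 25.2, a median of 31.2 and a high of 37.8 CPM in the pull-downs, 2.25 times.

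The small TIM chaperones had the highest median of the roles, 2.91 times over 6 genes, all of them above the input in each pull-down. Timm8b (chromosome 9, 50603901 to 50605320), a chaperone of the intermembrane space, was at 33.8 CPM in the input and at a low of 155, a median of 184 and a high of 232 CPM in the pull-downs. That is 5.37 times, the highest ratio in the family, with a mean log2 ratio of 2.42 ± 0.17 (SD, n = 9). Timm13 (chromosome 10, 80899450 to 80900969), which pairs with the Timm8 proteins, was at 13.0 CPM in the input and at a low of 53.4, a median of 68.9 and a high of 101 CPM in the pull-downs, 5.17 times. The Timm13 to Timm8b count ratio was 0.384 in the input, inside the range of 0.287 to 0.446 in the pull-downs. Timm8a1, the X-linked relative of Timm8b, was at 1.6 times, and the Timm8b to Timm8a1 count ratio was 22.1 in the input and 47.9 to 92.3 in the pull-downs.

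Timm9 and Timm10 build the chaperone ring that escorts carriers. Their ratios to the input differed, at 1.47 times for Timm9 and 3.43 times for Timm10. The Timm9 to Timm10 count ratio was 3.14 in the input, 1.19 to 1.35 in 8 pull-downs and 1.74 in yoked 3. So the balance of this pair in the pull-downs was below that of whole tissue in every library. Timm10b, which tethers the ring to Timm22, was at 2.47 times, and its span overlaps Dnhd1, for which there is no counted row.

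Genes for Chchd proteins had a median of 2.32 times the input over 8 genes, all above it in each pull-down. Chchd2 (chromosome 5, 129881161 to 129887470), a regulator of respiration and a Parkinson's disease gene in humans, was at 46.5 CPM in the input and at a low of 164, a median of 199 and a high of 454 CPM in the pull-downs. The high value was yoked 3, and the mean ratio of 4.59 became 4.18 without it. Chchd10 (chromosome 10, 75933130 to 75937750), its paralogue and a motor neuron disease gene in humans, was at 305 CPM in the input and at a low of 421, a median of 764 and a high of 982 CPM in the pull-downs. Here yoked 3 was the low library, and the mean ratio was 2.47, or 2.66 without it.

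Chchd3 and Chchd6 are subunits of MICOS, the complex that shapes cristae. Chchd3 was at 24.3 CPM in the input and at a low of 38.5, a median of 46.8 and a high of 50.5 CPM in the pull-downs, 1.88 times, while Chchd6 was at 4.51 times. The Chchd6 to Chchd3 count ratio was 0.303 in the input and 0.617 to 0.931 in the pull-downs. Chchd4, the oxidoreductase of the import pathway, was at 32.3 CPM in the input and at a low of 55.6, a median of 69.5 and a high of 96.8 CPM in the pull-downs, 2.18 times. Chchd1, a protein of the mitochondrial ribosome, was at 4.49 times and Chchd5 at 1.45 times. Chchd7 had the third-lowest ratio of the family, with 15.2 CPM in the input, a low of 15.7, a median of 17.0 and a high of 25.6 CPM in the pull-downs, 1.15 times.

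**Figure D2:**
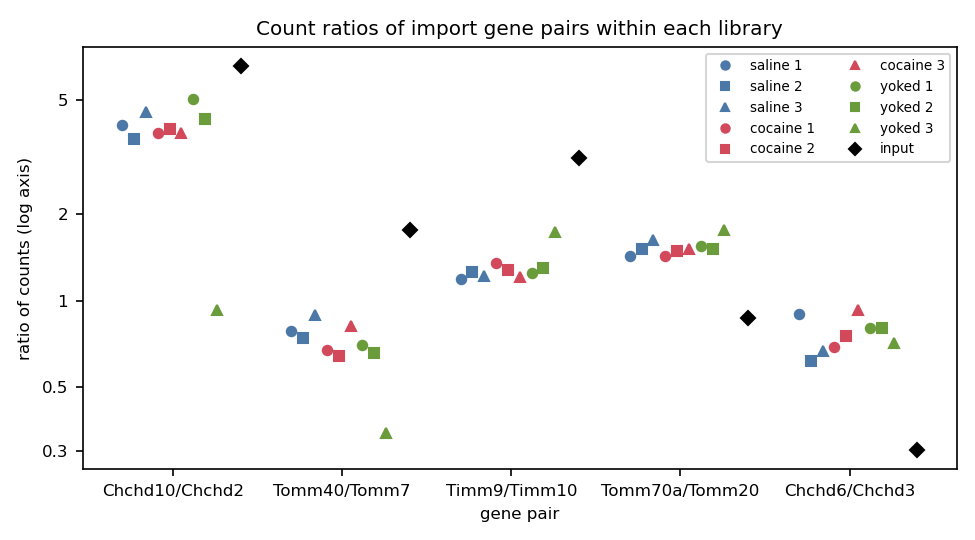
Ratios of the counts of 5 pairs of import genes within single libraries are plotted on a log axis, with saline, cocaine and yoked pull-downs in blue, red and green and the input as a black diamond. The input lies outside the range of the 9 pull-downs for each of these 5 pairs, though not for Timm13/Timm8b, which is not plotted. Yoked 3 lies apart from the other 8 pull-downs for Chchd10/Chchd2 (0.928), Tomm40/Tomm7 (0.347) and Timm9/Timm10 (1.74).

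Other genes of the import route were less far above the input. Of 29 genes listed for the import motor, processing proteases, outer membrane sorting, intermembrane oxidation, inner membrane insertion, MICOS and matrix chaperones, 25 were above the input in each pull-down and 4 were at least 2-fold above it in each, with a median of 1.71 times. Romo1, a small partner of the inner membrane translocases, was at 4.03 times and Hspe1, the matrix cochaperonin, at 3.32 times. Hspa9, the motor chaperone mtHsp70, was at 1.75 times. Mtx3, a metaxin of the sorting machinery, was at 0.704 times and below the input in each pull-down. Among families of similar destination, complex I genes had a median of 3.23 times (44 genes), mitochondrial ribosomal protein genes 2.20 times (75) and Slc25 carrier genes, whose proteins the TIM22 route inserts, 1.23 times (36).

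Genomic span went along with the ratio. Members were compact genes, with a median span of 6.53 kb over 29 genes against 26.0 kb over 11737 genes with a span. The median was 8.1 kb for complex I genes and 7.63 kb for mitochondrial ribosomal protein genes. It was 22.8 kb for Slc25 carrier genes and 24.0 kb for the other genes of the import route, the sets with the lower ratios. Across genes, which are not independent replicates and share the libraries, Spearman's rho between span and the log2 ratio was -0.41 over the 29 members and -0.36 over all 11737 genes. The part of span in the members' ratios and in the differences between the families was not tested, but values within like spans can be given. In the decile of genes with the shortest spans, the 11 members had a median of 2.47 times the input and all 1173 genes 1.48 times. Chchd3 and Chchd6, in the decile with the longest spans, had a median of 2.91 times where that decile as a whole was at 0.777 times.

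**Figure D3:**
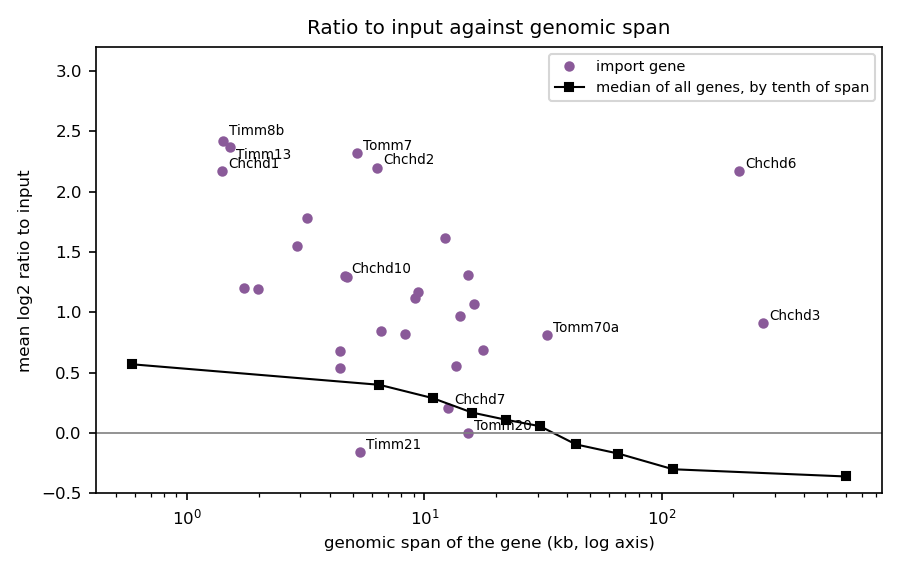
The mean log2 ratio to the input is plotted against genomic span on a log axis for the 29 import genes (purple), with the median of all genes in each decile of span joined in black at the decile's geometric middle. All import genes but Timm21, Tomm20 and Chchd7 lie above the line, including the long genes Chchd3 and Chchd6.

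The next 3 comparisons set the groups against each other. They ask whether the ribosome-bound RNA of import genes differed after cocaine self-administration from saline self-administration and from the yoked control, and whether the yoked control differed from saline. The comparisons share libraries in pairs and are therefore not independent of each other. Tests were edgeR quasi-likelihood tests over 14680 genes with Benjamini-Hochberg adjustment, which included 31 members, since Timm8a2 and Tomm20l did not pass the filter on low counts. The counts below are over those 31. No gene of the 14680 was called at an adjusted p under 0.05 in any of the 3 comparisons (0.0% called in each), so no import gene passed. At an unadjusted p under 0.05 there were 417, 379 and 270 genes in cocaine against saline, in cocaine against yoked and in yoked against saline. DESeq2 called 1, 0 and 0 genes and limma-voom none in each, and no called gene was a member.

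Cocaine libraries were higher than saline libraries in value for most import genes, without any passing the test. The median log2 fold change was 0.23 (1.17-fold), against 0.0036 over all genes. Values were higher in cocaine for 26 of the 31 members, where 50.6% of all genes were. All 8 Chchd genes and all 6 TIM23 genes had higher values, with medians of 0.24 in both sets, and so did 5 of 6 small TIM genes (median 0.26) and 6 of 8 TOM genes (median 0.22). The 5 with lower values were Tomm20, Tomm34, Tomm70a, Timm22 and Timm8a1. At an unadjusted p under 0.05 there were 2 members, against 2.84% of all genes. That count was 9 without yoked 3 (6.64% of all genes) and 8 without cocaine 1 (5.73%), 1 without cocaine 3 (1.63%), and 0 without cocaine 2 (1.53%) or saline 3 (1.52%). The cocaine libraries lay wholly above the saline libraries for 5 members, Chchd1, Chchd7, Timm9, Tomm6 and Tomm7, against 6.38% of all genes, and wholly below for Timm8a1 and Tomm70a, against 5.08%.

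**Figure D4:**
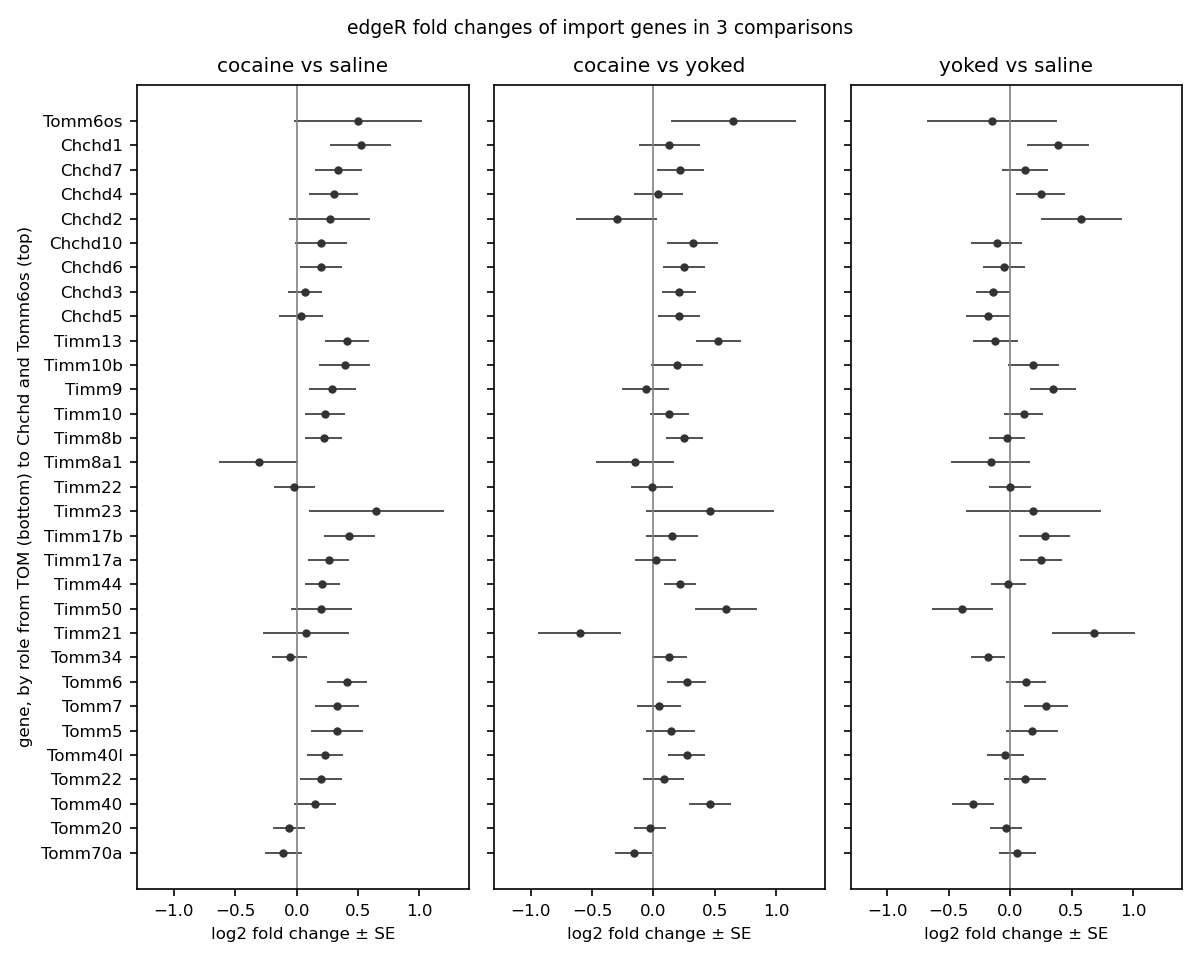
Log2 fold changes fitted by edgeR are plotted for the 31 import genes tested in 3 panels (left, cocaine over saline; middle, cocaine over yoked; right, yoked over saline), with bars of 1 SE. Genes are grouped by role from TOM subunits at the bottom to Chchd genes and Tomm6os at the top. Most points of the left panel lie to the right of 0 (26 of 31), the right panel is split (16 of 31), and none passed the test.

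Levels are given from here on as CPM scaled by TMM factors, the normalization of the test. Tomm6, a small subunit that stabilizes the TOM pore, was at 72.3, 81.2 and 63.2 in saline 1 to 3 and at 86.4, 113 and 87.2 in cocaine 1 to 3. The 3 cocaine values were all above the 3 saline values, and the log2 fold change was 0.41 ± 0.16 (SE; edgeR adjusted p = 0.999). Because Tomm6os and Frs3 overlap Tomm6, reads in shared bases could have been set aside as ambiguous or counted to any of these genes. The part of this in the Tomm6 values was not tested. Timm13 was at 70.9, 71.2 and 54.7 in saline and at 63.5, 103 and 94.4 in cocaine. Cocaine 1 was inside the saline range, and the log2 fold change was 0.41 ± 0.18 (edgeR adjusted p = 0.999). Timm17b was at 12.6, 10.9 and 9.40 in saline and at 10.5, 18.1 and 15.8 in cocaine, again with cocaine 1 inside the saline range (0.43 ± 0.21; edgeR adjusted p = 0.999). Without cocaine 2 these log2 fold changes were 0.27 for Tomm6, 0.27 for Timm13 and 0.26 for Timm17b.

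Chchd1, of the mitochondrial ribosome, had values of 23.9, 21.7 and 20.7 in saline and of 24.6, 34.1 and 36.4 in cocaine, with cocaine 1 only just above the saline range. Tomm7 was at 51.7, 48.1 and 46.3 in saline and at 52.4, 71.3 and 60.6 in cocaine. Timm8b was at 186, 178 and 167 in saline and at 169, 237 and 211 in cocaine, so the groups overlapped. In each of these 3 genes cocaine 2 and cocaine 3 were above all saline values, and cocaine 1 was inside the saline range or just above it. Chchd10 was at 769, 733 and 755 in saline and at 748, 1000.0 and 845 in cocaine, overlapping through cocaine 1. Chchd2 was at 188, 200 and 167 in saline and at 195, 254 and 221 in cocaine.

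Of the receptors, Tomm70a and Tomm20 were not higher in cocaine in value. Tomm70a was at 694, 662 and 734 in saline and at 661, 649 and 632 in cocaine, every cocaine value just under the lowest saline value, with a log2 fold change of -0.11 ± 0.15 (edgeR adjusted p = 0.999), or -0.066 without saline 3. Tomm20 was at 486, 436 and 449 in saline and at 463, 435 and 417 in cocaine, and the groups overlapped. Tomm22 was at 89.9, 80.8 and 80.9 in saline and at 81.1, 107 and 101 in cocaine, with cocaine 1 inside the saline range and cocaine 2 and 3 above it. Timm22 overlapped fully, at 32.2, 33.9 and 29.4 in saline and 28.4, 33.8 and 32.1 in cocaine.

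Against the yoked control, cocaine values were higher for 24 of the 31 members, where 45.5% of all genes were, with a median log2 fold change of 0.15 against -0.026 over all genes. Yoked 3 and yoked 2 pulled this count in opposite directions. Without yoked 3 it was 30 of 31 with a median of 0.28, and without yoked 2 it was 18. Without cocaine 2 it was 19 with a median of 0.061, and without cocaine 1 the median was 0.27. Unadjusted p was under 0.05 for 3 members, against 2.58% of all genes. The count was 7 without yoked 3 (6.80% of all genes), 6 without cocaine 1 (5.43%) or yoked 1 (4.86%), and 1 without cocaine 2 (1.39%) or cocaine 3 (1.75%). Timm44, Timm50 and Tomm6os were wholly higher in cocaine, against 3.42% of all genes, and no member was wholly lower, against 3.34%.

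The smallest p belonged to Timm13, at 67.8, 57.1 and 55.8 in yoked 1 to 3 beside its cocaine values of 63.5, 103 and 94.4. Cocaine 1 was below yoked 1, so the groups overlapped, and the log2 fold change was 0.53 ± 0.18 (edgeR adjusted p = 0.974). Tomm40 was at 36.6, 31.8 and 27.1 in yoked and at 35.4, 45.9 and 49.8 in cocaine, with a log2 fold change of 0.46 ± 0.17 (edgeR adjusted p = 0.974). Timm50 was at 4.43, 4.31 and 2.98 in yoked and at 4.94, 6.27 and 6.39 in cocaine, with all cocaine values above all yoked values (0.59 ± 0.25; edgeR adjusted p = 0.974). The lowest of the yoked values for both genes was yoked 3, and without it the log2 fold changes were 0.35 for Tomm40 and 0.42 for Timm50. Timm44 was at 50.2, 45.8 and 45.7 in yoked and at 50.9, 55.7 and 58.7 in cocaine.

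Yoked and saline libraries were close for the family as a whole. The median log2 fold change was 0.059 against 0.026 over all genes, and 16 of the 31 members were higher in yoked, where 55.0% of all genes were. Without yoked 3 the direction turned, with a median of -0.049 and 12 of 31 higher. The median was 0.13 without yoked 2, 0.024 without yoked 1 and 0.0032 without saline 3. No member had an unadjusted p under 0.05, against 1.84% of all genes, while 4 had without yoked 1 (3.91%) or without yoked 2 (5.29%). Only Timm17b was wholly higher in yoked, against 3.30% of all genes, and none was wholly lower, against 3.39%. Timm21 had the largest fold change, at 4.51, 3.33 and 3.57 in saline and 3.34, 5.02 and 9.97 in yoked. Its log2 fold change of 0.68 ± 0.34 (edgeR adjusted p = 0.999) was 0.13 without yoked 3. Timm9 was at 38.6, 37.8 and 30.3 in saline and at 38.1, 37.3 and 60.7 in yoked, and its log2 fold change of 0.35 ± 0.19 (edgeR adjusted p = 0.999) was 0.084 without yoked 3. Tomm40, at 40.7, 35.8 and 41.4 in saline beside its yoked values above, had a log2 fold change of -0.30 ± 0.17 (edgeR adjusted p = 0.999), or -0.20 without yoked 3.

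Levels of the members also differed between the libraries of a group. The median deviation of the 31 members from their own mean over the 9 pull-downs, on the log2 scale, was 0.0072, -0.056 and -0.17 in saline 1 to 3, -0.088, 0.27 and 0.14 in cocaine 1 to 3, and -0.057, -0.21 and 0.15 in yoked 1 to 3. The group means of these medians were -0.073 ± 0.09, 0.11 ± 0.18 and -0.039 ± 0.18 (SD, n = 3 each). Cocaine 1 lay among the saline and yoked libraries, and yoked 3 lay among the cocaine libraries, so the groups overlapped. Cocaine 2 was the highest library for 13 of 31 members, against 13.3% of all genes. Yoked 2 and saline 3 were the lowest for 11 each, against 11.2% and 13.5%. Yoked 3 was the highest for 13 and the lowest for 4, against 26.7% and 23.7%. Without cocaine 2, the median log2 fold change of cocaine against saline was 0.15, and without cocaine 1 it was 0.34.

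**Figure D5:**
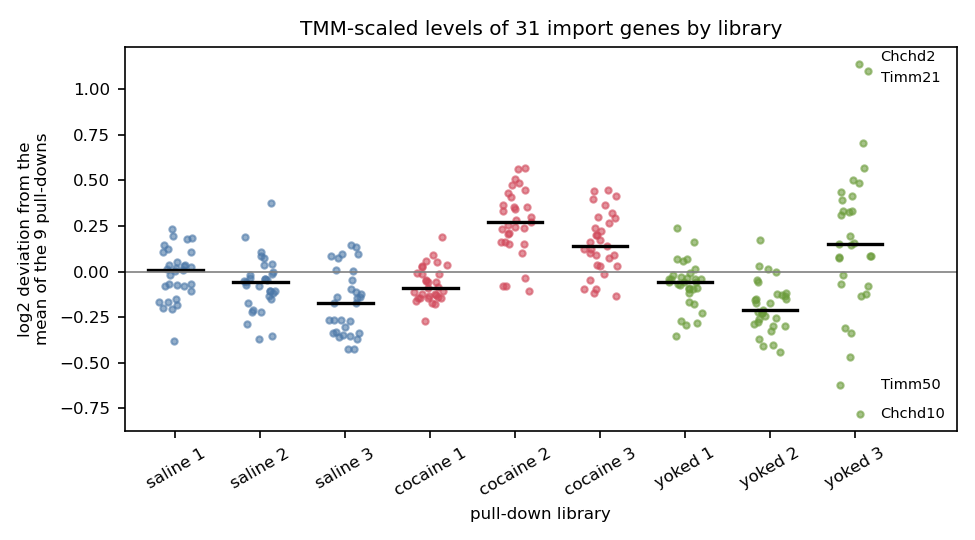
Each point is the log2 deviation of a TMM-scaled import gene level (0.5 CPM added) from that gene's mean over the 9 pull-downs, for the 31 members tested, and black bars are medians by library. Cocaine 2 has the highest median (0.27) and yoked 2 the lowest (-0.21), and yoked 3 has the widest spread, with Chchd2 and Timm21 far above and Timm50 and Chchd10 far below their means.

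Complex I and mitochondrial ribosomal protein genes were high and low in the same libraries. Complex I genes had median deviations of 0.24 in cocaine 2, 0.18 in cocaine 3 and 0.22 in yoked 3, and of -0.22 in yoked 2 and -0.24 in saline 3. For mitochondrial ribosomal protein genes the values in the same libraries were 0.25, 0.18, 0.11, -0.17 and -0.18. For Slc25 carrier genes they were 0.093, 0.028, -0.0092, -0.06 and -0.065, so yoked 3 was not high for that family. Markers of other cells also differed between libraries. The summed astrocyte markers were at 821 CPM and the summed oligodendrocyte markers at 968 CPM in yoked 2, the highest of the 9, against 156 and 242 in saline 3, 271 and 420 in cocaine 2, and 154 and 188 in yoked 3 (input 2170 and 2540). Over the groups, the sum of the 8 astrocyte markers ran from 156 to 463 CPM over saline, 142 to 327 over cocaine and 154 to 821 over yoked pull-downs, and the 7 oligodendrocyte markers from 242 to 626, 228 to 469 and 188 to 968. The 7 D1 markers ran from 2480 to 2910, 2420 to 2770 and 2230 to 3270 CPM, and the 6 cortical glutamatergic markers from 24.3 to 80.0, 70.4 to 103 and 21.7 to 120 CPM. No astrocyte, oligodendrocyte or D1 marker was at 0 in any pull-down. The share of Rn45s was 12.5% ± 1.91 for saline, 16.3% ± 4.56 for cocaine and 15% ± 0.291 for yoked pull-downs (SD, n = 3 each). Gene span moved with cocaine against saline too, with a median log2 fold change of 0.16 in the shortest decile of all genes, where the 11 members had 0.23, and of -0.11 in the longest. In cocaine against yoked the shortest decile had 0.13, its members 0.21 and the longest decile -0.12. In yoked against saline these values were 0.029, -0.026 and -0.00011. The part of marker levels, Rn45s and span in the members' differences was not tested.

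Yoked 3 differed from the other libraries in the balance among the members. Chchd2 was at 474 there and at 167 to 254 in the other 8 pull-downs, whereas Chchd10 was at 440 there and at 733 to 1000.0 in the others. The Chchd10 to Chchd2 count ratio was 0.928 in yoked 3, 3.67 to 5.04 in the other 8 and 6.56 in the input. Group means were 185 ± 16.7, 223 ± 29.5 and 275 ± 172 for Chchd2 and 752 ± 18.2, 866 ± 130.0 and 695 ± 231 for Chchd10 in saline, cocaine and yoked (SD, n = 3), so the yoked mean was the highest of the 3 for Chchd2 and the lowest for Chchd10. Cocaine against yoked, the log2 fold change of Chchd2 was -0.30 ± 0.33 with yoked 3 and 0.34 without it, and that of Chchd10 0.32 ± 0.21 with and 0.076 without it. Yoked against saline, Chchd2 had 0.58 ± 0.33 with yoked 3 and -0.069 without it, and Chchd10 -0.11 ± 0.21 with and 0.13 without it. None of these passed (edgeR adjusted p from 0.974 to 0.999). The Tomm40 to Tomm7 count ratio was 0.347 in yoked 3, 0.643 to 0.894 in the other 8 and 1.77 in the input. The Tomm40 to Tomm40l ratio was 0.539 in yoked 3, 0.675 to 0.877 in the other 8 and 0.887 in the input. What sets yoked 3 apart was not tested.

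The 29 other genes of the pathway were closer to no change in their medians than the members. None passed the test in any comparison. Cocaine values were higher than saline values for 21 and lower for 8 of them (median 0.11), where 50.6% of all genes were higher. Against yoked, cocaine values were higher for 15 and lower for 14 (median 0.012), where 45.5% of all genes were higher. Yoked values were higher than saline for 19 and lower for 10 (median 0.022), where 55.0% of all genes were higher. Romo1 was the only gene of the 29 with an unadjusted edgeR p under 0.05. Its log2 fold changes were 0.37 ± 0.17 against saline and 0.41 ± 0.17 against yoked, neither passing after adjustment. Over all genes the share under 0.05 was 2.84% in cocaine against saline and 2.58% in cocaine against yoked. Hspa9 was at -0.045 and -0.27, and Hspd1, the matrix chaperonin, at -0.027 and -0.00034. In the same comparison of cocaine with saline, the median log2 fold change was 0.28 for complex I genes (43 of 44 higher), 0.21 for mitochondrial ribosomal protein genes (71 of 76 higher) and 0.07 for Slc25 carrier genes (26 of 40 higher), beside the 0.23 of the import genes. These families were picked with earlier results known and share the libraries, so their likeness is a description. The other pathway genes and the Slc25 genes, with the longer median spans given above, had the smaller medians. The part of span in this was not tested.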

How the data were processed

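RNA of 9 pull-downs and 1 input was measured by sequencing, and the values used are the whole-number read counts per gene that the authors deposited. The submitters' processing notes name STAR 2.0.0e, HTSeq and the mm10 build. How reads were assigned to strands, and with which annotation, is not given in the sources used here. The 6 rows that name no gene entered neither library sizes nor tests. With 12528806 to 45242175 gene counts per pull-down, a floor of 3 counts is 0.0663 to 0.239 CPM, which covers counting error only. No library was treated as a duplicate, since chi-square per degree of freedom between replicates was 14.6 to 171.

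Groups were compared by quasi-likelihood F tests of edgeR 4.0.16 under R 4.3.3 (robust, TMM, filterByExpr, all 9 pull-downs, no term but group), with Benjamini-Hochberg adjustment over the 14680 genes tested and a threshold of 0.05. The common biological coefficient of variation was 23.7%, and SE is the fold change divided by the root of F. The script was tested on simulated data with less spread than these libraries, which checks the code and not its power here. Ratios to the input are means over the 9 pull-downs of log2(CPM + 0.5) differences for genes with a mean of at least 1 CPM.

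Named genes are a fixed list of core subunits, the 3 members with the highest and the 3 with the lowest ratio to the input, and in each comparison the 3 with the smallest unadjusted p at a mean count of at least 50. Other members are named by role. Values by group are printed for only part of the named genes, and also for Chchd1, which is outside this rule. The members and lists were chosen with earlier results of these data known. Alternatives covered scaling (RLE, upper quartile, Rn45s left out), filters, pseudocounts, DESeq2 1.42.0, limma-voom (limma 3.58.1), fits of only the groups compared, a replicate block and leaving out each pull-down. The counts of members higher in value and at least 2-fold above the input were added to these checks after the data were seen. Levels were compared between genes only as ratios across libraries, since transcript lengths were not used here. Promoters were credited to RefSeq, and 5 members without an entry are not described there.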

Additional observations from a re-analysis of the deposited data

Results flagged for a closer look

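In 29 members with a mean of at least 1 CPM, the highest or the lowest of the 9 pull-downs lay far from the rest in 5, by Dixon's criterion, which chance meets in about 1 of 20 groups. Yoked 3 was the library concerned in 4 of the 5. The share flagged in this way over all genes was not computed. Yoked 3 was the highest library for 26.7% and the lowest for 23.7% of all genes tested. In yoked 3 Chchd2 was at 454 CPM, against 164 to 248 in the other 8 pull-downs, and Timm21 was at 9.55 CPM, against 3.39 to 5.05. Chchd10 was at 421 CPM in yoked 3, against 742 to 982, and Timm50 at 2.85 CPM, against 4.34 to 6.13. The fifth was Chchd7, at 25.6 CPM in cocaine 2 against 15.7 to 18.7 in the other 8. The cause was not tested.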

How the results depend on the processing

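No import gene was called under any of the settings run, and the smallest adjusted p of a named member was 0.727. Over all genes, cocaine against saline gave 1 called gene in place of 0 with DESeq2, with only the groups compared and without yoked 3 (AK155692 in each), and 1 with the replicate block (Gh), so leaving out single pull-downs gave 0 to 1. Cocaine against yoked gave 1 with the replicate block (Gh) and 0 without each pull-down. Yoked against saline gave 1 with the replicate block (Gh) and 0 to 1 without single pull-downs (AK155692 without yoked 3). Both genes were named after their values were seen. Deviations of same-numbered libraries correlated over 0.1 in 6 of 9 pairs (-0.0666 to 0.281; all pairs numbered 2 or 3) and those of other pairs in 1 of 18 (-0.27 to 0.172). The labels do not say that a number marks a shared animal, litter or day, so the main fit has no term for it. The pairs numbered 1 fell short, but libraries numbered 2 and 3 did deviate with their own number. Without yoked 3, Chchd2 reversed to 0.34 in cocaine against yoked (-0.54 to 0.34 over single left-out pull-downs) and to -0.069 in yoked against saline (-0.069 to 0.81), and Chchd10 to 0.13 in yoked against saline (-0.33 to 0.13). The members' median over single left-out pull-downs ran from 0.15 to 0.34, from 0.061 to 0.28 and from -0.049 to 0.13 in the 3 comparisons. Their median log2 ratio to the input rose from 1.17 to 1.36 under TMM over all 10 libraries, where the median of all genes went from 0.027 to 0.22, and ran from 1.13 to 1.21 without single pull-downs. Of 540 alternative values for 32 results, 529 were scored as unchanged. For a tested gene that meant the same direction and the same side of the threshold. Medians could move by less than the spread between replicates, and counts by at most 1.5 times. Among the 529 was the members' median in yoked against saline, which changed sign without yoked 3 (-0.049). The count of members at least 2-fold above the input in each pull-down, 10, was also scored as unchanged throughout. It ran from 9 to 15 over 6 other settings and from 10 to 12 without single pull-downs. Depth limits Timm23, Timm8a2, Tomm20l and Tomm6os, and a missed threshold does not show that groups did not differ.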
